A study of Drosophila melanogaster with 2 samples.

Results

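The genes described are 10 Polycomb group genes of Drosophila melanogaster, ph-p, ph-d, Pc, Psc, Su(z)2, Sce, E(z), esc, Su(z)12 and pho, out of 13968 protein-coding genes on the chromosome arms. They were picked by name, with results of these data already known, and every region of the deposited lists was taken whose summit was nearest to a transcription start site (TSS) of one of them among protein-coding genes, or lay inside the gene. This gave 5 of the 1655 regions of the main thresholded list and 39 of the 121914 regions of the ranked list behind it. The lists map binding of a Gsc-eGFP fusion protein, the homeodomain protein Goosecoid joined to green fluorescent protein (GFP), by ChIP-seq. In this method chromatin is pulled down with an antibody and its DNA sequenced. There was 1 group: whole embryos of the transgenic strain Gsc-GFP, whose insertion targets Gsc, collected from 0 to 24 h and sonicated to a size range of 200 to 800 bp, in 2 biological replicates, with no untagged, untreated or second genotype among the samples. The promoter that drives the fusion is not given in the sources used here, and the labels name the antibody as anti-GFP in one field and as Gsc in another. A control library was not analysed here. Since whole embryos of all stages were pooled, a region bound in few cells cannot be told apart from one bound weakly in many.

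Polycomb group proteins keep developmental genes, the Hox genes among them, silent in cells where they were not switched on early. Polycomb repressive complex PRC1 holds Pc, which reads methylated histone H3 through its chromodomain, the Polyhomeotic proteins of ph-p and ph-d, Psc or its relative Su(z)2, and the ubiquitin ligase Sce. PRC2 holds the histone methyltransferase E(z) with esc and Su(z)12, and PhoRC holds the DNA-binding protein pho. In flies the complexes are drawn to Polycomb response elements, which often carry sites for pho and for the GAGA factor, and some of these elements lie at Polycomb group genes themselves.

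The regions of the main list fell at 3 of the 10 genes, ph-p, ph-d and Psc, all of PRC1. ph-p and ph-d had 2 regions each and Psc had 1. Pc, Su(z)2, Sce, the PRC2 genes E(z), esc and Su(z)12, and the PhoRC gene pho had none. For comparison, 1286 protein-coding genes had at least 1 main-list region by the same rule, which is 9.21%, and 1.98% had at least 2. ph-p and ph-d are tandem neighbours, so their regions are not independent of each other's locus. The genes were chosen with their regions known, and the shares were not matched for gene length, so the count is given as a description. The authors' signal value, on a scale that the sources used here do not give, had a median of 97.4 over the 1470 main-list regions on the arms and of 19.9 over the 117578 ranked regions there.

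**Figure D1:**
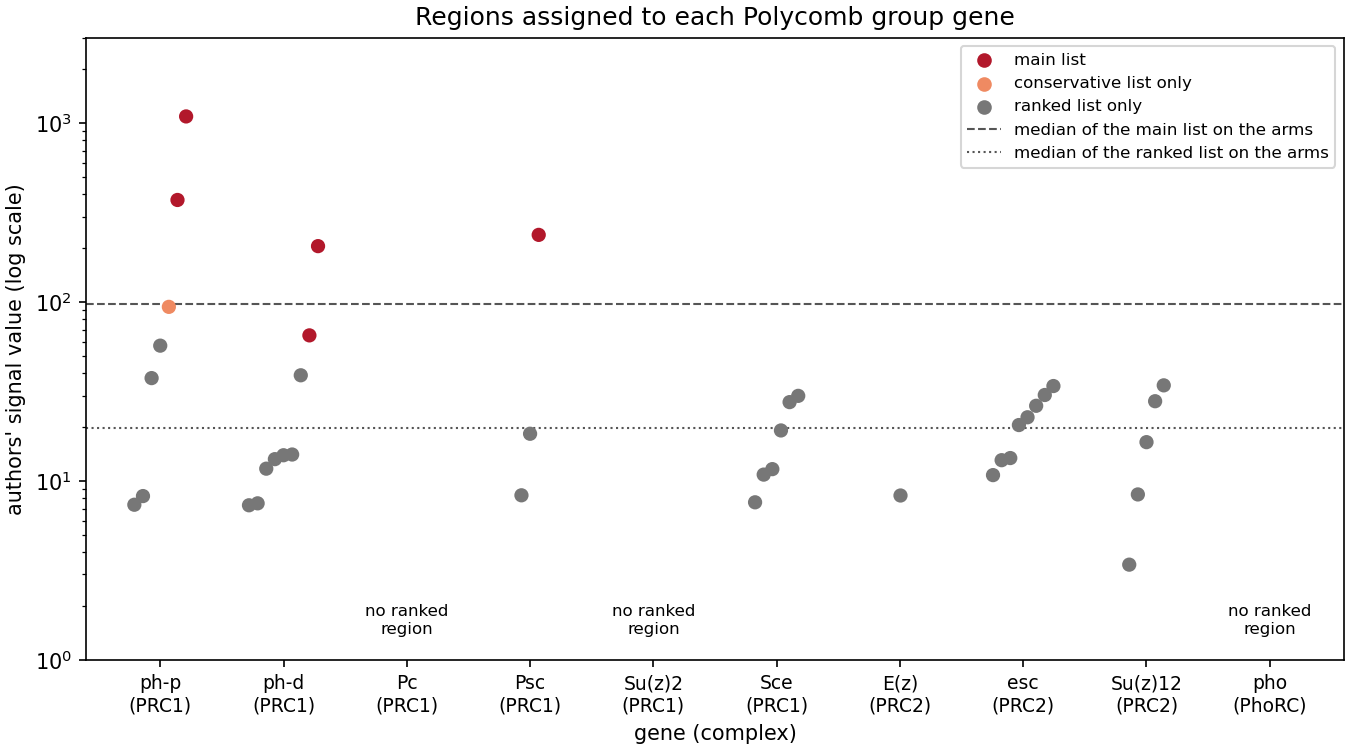
Signal value (log scale) of every ranked region assigned to each of the 10 genes, with main-list regions in red, the region of the conservative list only in orange, and the medians of the main and ranked lists as lines. The points of ph-p reach 1089.8, those of Sce, E(z), esc and Su(z)12 stay at or below 34.2, and Pc, Su(z)2 and pho have no ranked region.

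ph-p, the proximal polyhomeotic gene (FBgn0004861, chrX:2126210-2138371, dm6, minus strand), held the strongest of these regions. Its main-list region at chrX:2137203-2137506 had a signal of 1089.8 and rank 4 by signal among main-list regions on the arms. In the replicates' own ranked lists it reached 602 in replicate 1 and 506 in replicate 2 (554 ± 68.2, SD, n = 2). The lists of each replicate and of both were made separately, so values are compared within a list or between the replicates, not from the joint list to a replicate. The summit, at 2137358, lay in intron 1 of 4 of the longest transcript, FBtr0345598, and 503 bp upstream of the nearest start site, that of a shorter transcript. The replicates' own summits were 1 and 3 bp away from it. The next gene by start site was D2hgdh, 4131 bp away.

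A second ph-p region lay 535 bp farther upstream, summit to summit. It covered chrX:2137744-2137962, with a signal of 372 and rank 75 on the arms. Its values were 184 in replicate 1 and 199.8 in replicate 2 (192 ± 11.3, SD, n = 2). Both were below both values of the first region, so the difference between the neighbouring regions was larger than the spread between replicates. The summit lay in the 5' UTR in exon 1 of FBtr0345598, 478 bp downstream of the start site, and 3596 bp from that of D2hgdh.

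The sequence under the first ph-p summit is shown because the tandem copies differ there, as they do in other stretches. ph-p and ph-d share a coding block of 4480 aligned bp at 92.0% identity. Upstream they share 3 blocks of 300 bp or more, 1274 aligned bp in all at 70.5% to 90.7% identity, which run over chrX:2136747-2138299 at ph-p and chrX:2123181-2124606 at ph-d. Between the first and the second upstream block, ph-p has 208 bp with no aligned counterpart and ph-d has 15 bp. The strongest summit fell inside these 208 bp. The sequences below are from the Release 6 reference, plus strand, with 45 bp of aligned flank on either side in lower case and the unaligned bases in capitals.
ph-p intron region, chrX:2137220-2137517: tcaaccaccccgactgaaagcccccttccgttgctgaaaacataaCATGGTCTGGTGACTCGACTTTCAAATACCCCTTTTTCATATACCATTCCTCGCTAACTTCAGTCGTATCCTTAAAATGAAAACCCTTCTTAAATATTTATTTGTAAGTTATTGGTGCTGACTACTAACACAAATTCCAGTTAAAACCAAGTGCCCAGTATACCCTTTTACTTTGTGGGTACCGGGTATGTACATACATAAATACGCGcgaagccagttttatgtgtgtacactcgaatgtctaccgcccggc
ph-d counterpart, chrX:2123652-2123756: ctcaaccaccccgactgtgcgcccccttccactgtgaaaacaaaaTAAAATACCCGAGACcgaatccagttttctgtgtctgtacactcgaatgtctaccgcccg
A looser search placed only a 15-base piece of the 208 bp elsewhere in the ph-d locus. No main-list or ranked summit lay in the 15 bp of ph-d. Across the genome, the whole ph-p region had 1 other match, of 62 bp at 88.7% identity. It lies at chrX:2123636-2123696 and ends where the 15 bp of ph-d begin.

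The second ph-p region and the upstream region of ph-d fell at matching places of the duplication. Between the second and the third upstream block, 98 bp of ph-p (chrX:2137856-2137953) and 209 bp of ph-d (chrX:2124053-2124261) do not align with each other. The second ph-p summit, at 2137893, lay in the former, and the summit of the stronger ph-d region, at 2124094, in the latter. Neither region had another match in the genome. How the authors treated reads that map to several places is not given in the sources used here, and a part of either region lies over aligned sequence.

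ph-d, the distal copy (FBgn0004860, chrX:2115727-2123286, minus strand), had its stronger region at chrX:2124012-2124144. It lay between the genes, 808 bp upstream of the ph-d start site and 12528 bp from the nearest start site of ph-p. The signal was 205, rank 241 on the arms, with 105 in replicate 1 and 94.9 in replicate 2 (99.9 ± 7.12, SD, n = 2). Both values were below both values of the second ph-p region, which stands at the matching place. The region is printed with the bases outside the aligned blocks in capitals.
ph-d upstream region, chrX:2124012-2124144: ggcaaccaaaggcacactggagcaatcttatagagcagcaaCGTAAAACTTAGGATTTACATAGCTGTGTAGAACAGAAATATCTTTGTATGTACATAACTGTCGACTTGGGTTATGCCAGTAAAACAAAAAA

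The weaker ph-d region was close to the threshold. It covered chrX:2121984-2122319 in intron 1 of 4 of FBtr0112843, with the summit 360 bp upstream of the second ph-d start site. Its signal of 65.1 had rank 1255 of 1470 on the arms, and its −log10 of the irreproducible discovery rate (IDR) was 2.13, where the weakest region of the main list had 2.00. It was at 37.5 in replicate 1 and 29.7 in replicate 2 (33.6 ± 5.52, SD, n = 2) and overlapped a thresholded region in neither replicate's own list. The 201 bases around its summit are shown with the word CAGGTA, part of the site that the early activator Zelda recognises, in capitals. CAGGTA was 1 of 8 words searched and was within 50 bp of 1.97% of all main-list summits on the arms. ACAGTG, another of these words, also stands in this stretch and is not marked. Binding of Zelda was not tested.
ph-d intron region, chrX:2122052-2122252: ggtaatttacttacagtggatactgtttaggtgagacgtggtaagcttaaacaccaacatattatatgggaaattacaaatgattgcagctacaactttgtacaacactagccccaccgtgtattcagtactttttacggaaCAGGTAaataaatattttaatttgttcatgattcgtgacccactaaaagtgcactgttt

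Psc (FBgn0005624, chr2R:12965997-12980994, minus strand), whose product compacts chromatin as part of PRC1, had 1 main-list region. It lay at chr2R:12975493-12975641 in intron 2 of 4 of all 3 transcripts, 5072 bp downstream of the nearest Psc start site and 18311 bp from that of CG33798, the next gene. The signal was 237, rank 191 on the arms, with 127 in replicate 1 and 109 in replicate 2 (118 ± 12.6, SD, n = 2). The region had no other match in the genome. Su(z)2, the paralogue of Psc (FBgn0265623, chr2R:12996501-13007911, plus strand), stands head to head with it, 15506 bp away. Su(z)2 had no region in the ranked list, and the closest ranked summit was 19978 bp from the gene, in Psc. In the replicates' own ranked lists Su(z)2 had 2 regions in replicate 1, at up to 13.9, and none in replicate 2.

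**Figure D2:**
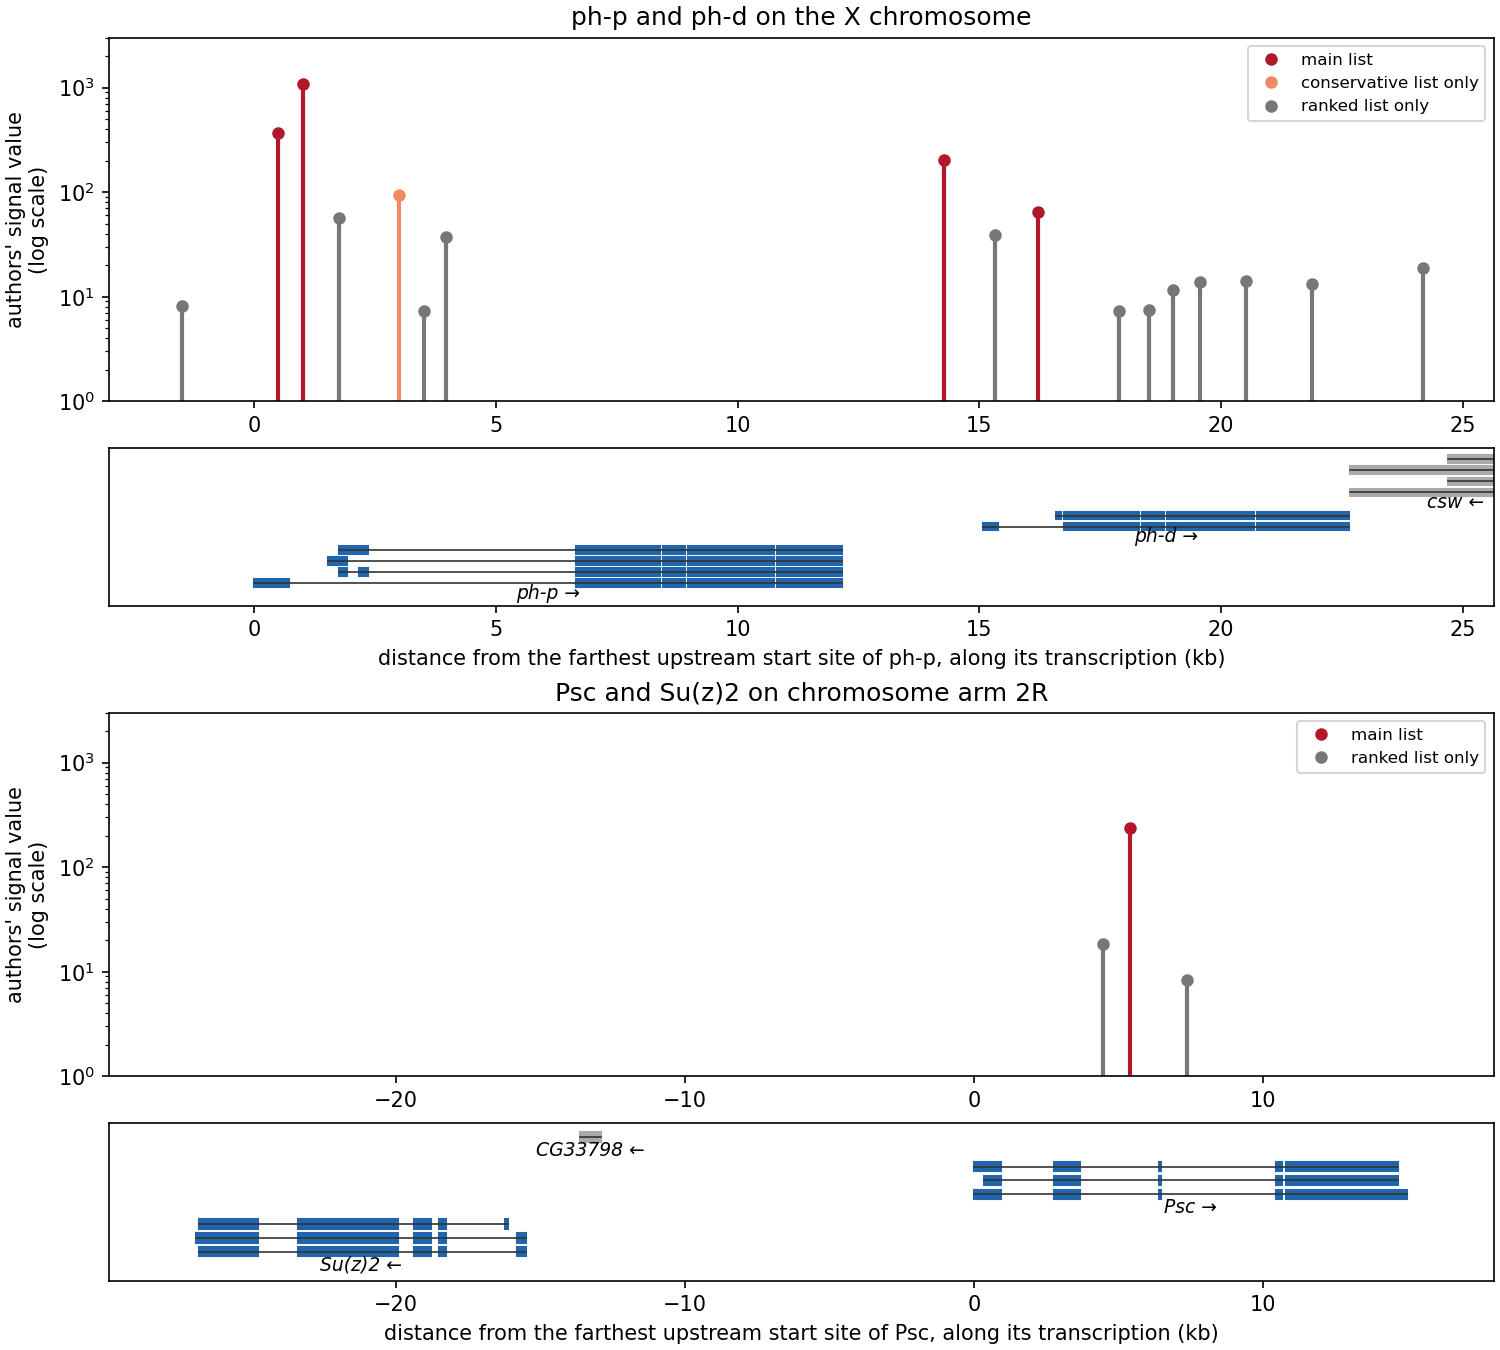
Signal value (log scale) of each region of the ranked list around the ph genes (upper pair of panels) and around Psc and Su(z)2 (lower pair), by distance in kb from the farthest upstream start site of ph-p or Psc along its transcription, above the exons of each transcript. The ph regions of the main list stand at the 5' ends of ph-p and ph-d, the Psc region stands in an intron of its gene, and Su(z)2 has no region.

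One further ph-p region was past the threshold in one list and not in another. The region at chrX:2135206-2135541, in intron 1 of FBtr0345598, had a signal of 94.0, above that of the weaker ph-d region. In the ranked list behind the main list its −log10 IDR was 0.41, and it was outside the main list. It was in the conservative list, which goes with another ranked list whose IDR values are not given here. The conservative list has 6 regions at 3 of the 10 genes, where 8.76% of protein-coding genes had at least 1. The values of this ph-p region were 44.5 in replicate 1 and 45.3 in replicate 2 (44.9 ± 0.568, SD, n = 2). They were closer to each other than those of any main-list region of the 10 genes. Weaker ranked regions were in no thresholded list. One, 6 bp from another ph-p start site, had a signal of 57.0, with 33.1 and 19.4 in replicates 1 and 2. In ph-d, a region over the 5' UTR of FBtr0112843, 249 bp downstream of the start site, had 38.9, with 21.1 and 24.0.

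Over the shared coding block, the weak regions were listed at one copy or the other. The ranked list had 5 summits in the block at ph-d, none above 14.0, and none at ph-p. The ranked list of replicate 1 had 4 at ph-p, up to 14.6, and 3 at ph-d, all below that. That of replicate 2 had none at ph-p and 2 at ph-d, up to 5.54. At this identity, reads of the copies may be exchanged, so the assignment of these regions to ph-p or ph-d is uncertain.

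The other 7 genes had no ranked region above 34.2. Sce, the ubiquitin ligase gene of PRC1 (FBgn0003330, chr3R:27680431-27682029), had 6 ranked regions, the strongest at 29.9 and lying upstream of the gene. In PRC2, esc (FBgn0000588, chr2L:11827204-11829405) had 8, up to 33.9, Su(z)12 (FBgn0020887, chr3L:19918242-19923462) had 5, up to 34.2, and the methyltransferase gene E(z) (FBgn0000629, chr3L:10634575-10638130) had 1, at 8.30. The 20 regions of these 4 genes had a median of 17.8, near that of all ranked regions on the arms. Their summits lay in coding sequence in 9 cases, in introns in 6, between genes in 3 and within 500 bp of a start site in 2, counting features of any protein-coding gene. The strongest of Su(z)12 and of esc were both in coding exons.

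In the ranked list 7 of the 10 genes had a region, near the share of all protein-coding genes, 69.5%. Pc, Su(z)2 and pho had none there. Pc (FBgn0003042, chr3L:21306138-21318020) had 1 region in the ranked list of replicate 1, at 16.8, and 2 in that of replicate 2, up to 10.3. The closest summit of the joint ranked list was 353 bp from the gene, with a signal of 34.3, and was assigned elsewhere. A main-list region also lay close by, at chr3L:21304421-21304756, 1549 bp past its 3' end. That region was assigned to CG11309, 69 bp from its start site, with a signal of 120.02 and 62.6 ± 7.86 (SD, n = 2) in the replicates. For Sce, E(z), esc and Su(z)12 the closest main-list summit was between 44243 and 128052 bp away. pho (FBgn0002521, chr4:1172469-1181628) lies on chromosome 4, where the main list had no region, and the closest ranked summit was 97668 bp from the gene.

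Su(z)12 differed between the replicates. The thresholded list of replicate 1 had a region at chr3L:19923180-19923483, 130 bp downstream of the Su(z)12 start site, with a signal of 75.4. No region of the ranked list of replicate 2, and none of the ranked list made from both replicates, overlapped it. With it, 4 of the 10 genes had a region in the list of replicate 1, where 7.07% of protein-coding genes did. In the list of replicate 2 the count was 3, ph-p, ph-d and Psc, where 5.73% did.

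The 4 stronger main-list regions, those of ph-p, Psc and the upstream region of ph-d, each overlapped a region in both replicates' own thresholded lists. All 5 main-list regions, the weaker ph-d region among them, were in the conservative list. The main and conservative lists were made from these same 2 replicates. Such overlap is therefore partly set by the selection and is given only as a description. Over the 5 main-list regions the log2 ratio of replicate 2 to replicate 1 ran from -0.34 to 0.12. Over the 1589 main-list regions with a value in both replicates it had a median of -0.22 and an SD of 0.66. Of the 34 regions outside the main list, 16 overlapped a region in both replicates' ranked lists, 16 in 1 of them and 2 in neither.

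**Figure D3:**
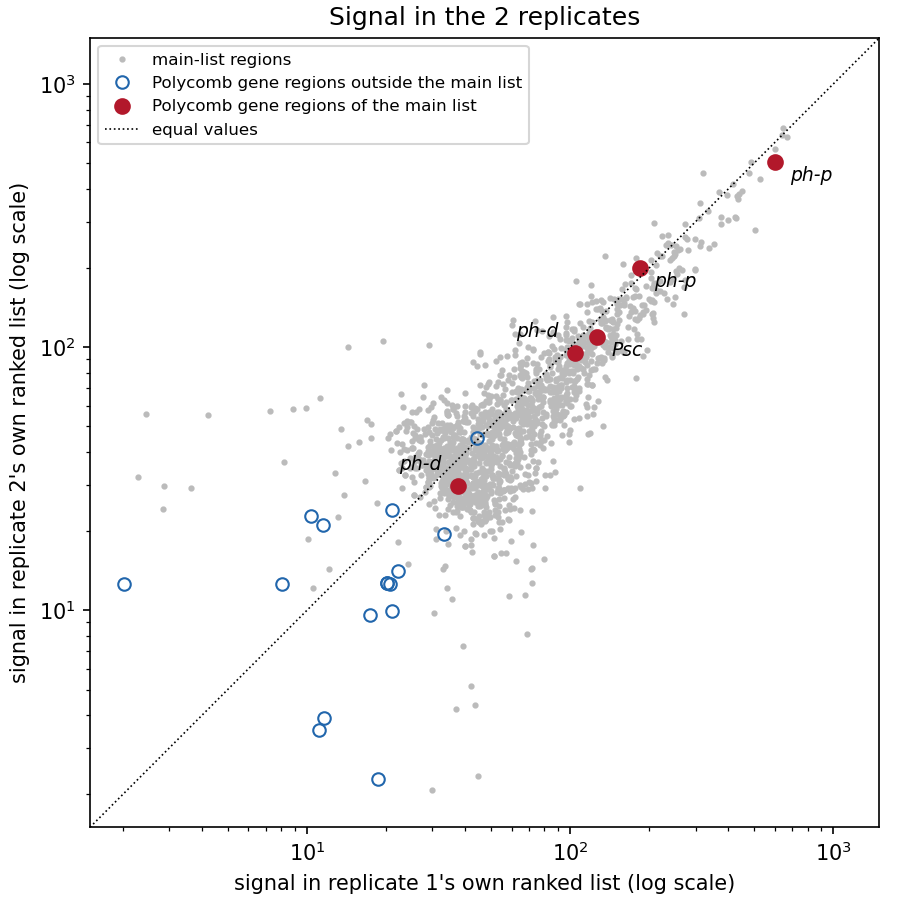
Signal of each main-list region in the ranked list of replicate 1 (x axis, log scale) and of replicate 2 (y axis, log scale), with the main-list regions of the Polycomb group genes in red, their other regions that have a value in both replicates as open circles, and a line of equal values. The red points run from 37.5 and 29.7 for the weaker ph-d region to 602 and 506 for ph-p.

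Sequence words were searched on both strands around the 5 summits, and a match is a description of letters, not a shown site. The GAGA factor word GAGAG was within 50 bp of no summit of the 5 and of 8.57% of all main-list summits on the arms, and the pho core word GCCAT of none and of 14.9%. Within 150 bp GAGAG was found at 3, the second ph-p region, Psc and the weaker ph-d region, against 36.7% of all, and GCCAT at Psc alone, against 41.8%. The word TAATCC, bound by homeodomain proteins of the Goosecoid and Bicoid type, was within 150 bp of none of the 5, and of 8.03% of all. Of the other words, TAATTA stood in 3 copies within 150 bp of the upstream ph-d summit (17.8% of all regions held it), and CAGGTA 42 bp from the weaker ph-d summit (1.97% within 50 bp). ACAGTG lay within 150 bp of the second ph-p summit and both ph-d summits (30.3% of all), and TGAGTG, of the Zeste type, of the second ph-p and the weaker ph-d summit (15.7%). TATCGATA, the word of the factor DREF, was at none of the 5, and at 2.11% of all. The first ph-p summit, the strongest, had none of the 8 words within 150 bp. TAATCC and TAATTA share their first letters, GAGAG can overlap itself, and the words were counted separately, so matches may overlap.

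The summits were in AT-rich sequence, as most of the list was. GC content within 50 bp of the summit was 32.7% at the first ph-p region, 21.8% at the second, 26.7% at Psc, and 34.7% and 36.6% at the stronger and the weaker ph-d region. The median over the main list on the arms was 33.7%. The 4 stronger regions were 133 to 304 bp wide, narrower than the most common width of the list, as were 319 of the 1655 regions. In the whole list the narrower regions had a median signal of 264 and those of the most common width one of 86.1.

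Genes of related function held main-list regions too. Among 17 other Polycomb genes that matched the annotation, 3 had one: RYBP, whose product binds the PRC1 ligase (166, with 81.0 ± 13.9 in the replicates), jing, the fly relative of a PRC2 accessory factor (105, 58.3 ± 7.15), and Sfmbt, the partner of pho in PhoRC (88.2, 44.4 ± 9.19; SD, n = 2 for each). RYBP had 3 main-list regions and jing 2, and the values are those of the strongest. The Sfmbt region was 92 bp from its start site, the strongest of RYBP lay 7585 bp from it between genes, and that of jing deep in an intron. The other 14 genes of this list had none in the main list. Their strongest ranked region had a signal of 121.0, above those given for jing and Sfmbt. Of all protein-coding genes, 9.21% had a main-list region. This share was not matched for gene length, and the rule counts a summit anywhere inside a gene. jing had 148 ranked regions and RYBP had 3.

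Among 8 genes for DNA-binding recruiters or co-factors of Polycomb complexes, 3 had a main-list region. Trl, which codes for the GAGA factor, had 497 in an intron 1536 bp from its start site (chr3L:14759389-14759635). Its replicate values were 299 and 197 (248 ± 72.2, SD, n = 2). grh, the Grainyhead gene, had 175 and psq, the Pipsqueak gene, 78.5, both in introns. Among 16 trithorax group genes, whose products oppose Polycomb silencing, 4 had one. These were osa, of the Brahma chromatin remodelling complex (427, 209 ± 5.17), the chromodomain helicase gene kis (164, 88.3 ± 8.61), nej, for the acetyltransferase CBP (113, 55.2 ± 10.2), and brm, the remodelling ATPase gene (70.9, 35.7 ± 14.1; SD, n = 2 for each). osa and kis had 2 main-list regions each, of which the strongest is given. The brm region lay in a brm intron and was nearest to the start site of CG17028. All 3 lists were drawn up with results of these data known. Of protein-coding genes, 9.21% had a main-list region, a share not matched for gene length.

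**Figure D4:**
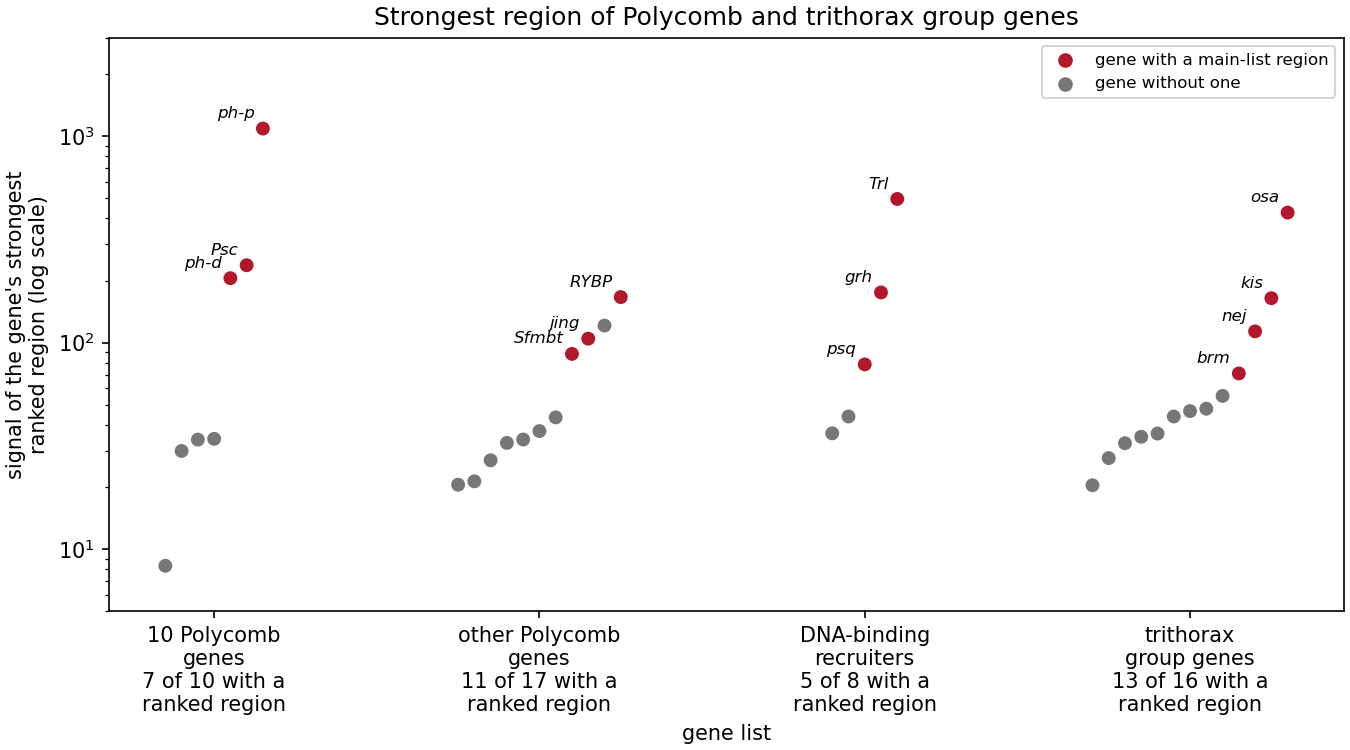
Signal (log scale) of the strongest ranked region of each gene in 4 lists, with genes that have a main-list region in red and named. Of all genes shown, ph-p has the highest value, at 1089.8, followed by Trl at 497 and osa at 427.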

How the data were processed

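Regions bound by Gsc-eGFP were read from the deposited lists, on dm6 per the labels, with peak caller and aligner not given in the sources used here. Deposited were the authors' lists ranked by IDR and thresholded lists, for each replicate and for both together. The signal value and the score per region are the authors' own, and the score (a scaled IDR, from its values) was not used further. The authors' deposited −log10 IDR marks the threshold. All 1655 regions of the main list were found in 1 ranked list, used with it here. Per the file headers, the thresholded lists derive from 1 file more than the ranked lists do. The 16 unnamed columns of the ranked lists of both replicates were left out. The files hold no read counts, so depth is unknown.

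Gene models were those of Ensembl (release 115). Sequence was read from the RefSeq Release 6 genome, and no region ran past the end of its 7 arms. All 10 genes had the same ends in Ensembl and RefSeq. Summits were assigned with Python 3.11.15 and pandas 2.3.3, and the step that finds the nearest TSS was tested on simulated data. A summit within 500 bp of a TSS was called promoter. Replicate values came from the region with the longest overlap in each replicate's own ranked list (at least 1 bp), as mean and SD. Copies were sought with BLAST 2.17.0 (E-value limit 1e-05). No hypothesis test was run: there is 1 group, and genes and regions are not replicates. By rule, all 10 genes are named with each main-list region, its next nearest gene and the strongest ranked region, and of the other lists each gene with a main-list region. The genes, lists and words were chosen with earlier results of these data known. The listed gene calypso did not match a protein-coding gene by name and was not used. Alternatives were other lists, each replicate alone, other assignment rules and other overlap rules.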

Additional observations from a re-analysis of the deposited data

How the results depend on the processing

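The count of genes with a region, 3 of 10, was 3 in the conservative list, in the stronger 50% of the main list, with the nearest TSS only and with gene bodies only. With summits within 2000 bp of a TSS it was 2, since the Psc region dropped out. Without replicate 1 it was 3 and without replicate 2 it was 4, the added gene being Su(z)12. The number of regions, 5, ranged from 4 to 6 over these settings, with 4 without replicate 1 and 5 without replicate 2, and was 5 with 1 region kept where regions overlap. The replicate means of the 5 regions were the same under both other overlap rules. The number of genes with any ranked region, 7, was 6 in the ranked list behind the conservative list and within 2000 bp of a TSS, and 7 and 9 without replicate 1 and replicate 2. The 7 without replicate 1 held Pc in place of E(z), and the 9 without replicate 2 added Pc and Su(z)2. E(z) rested on replicate 1, while replicate 2 listed no region of it. Its region in the joint ranked list was above 15.3% of ranked regions on the arms. By overlap that region matched one at 12.2 in replicate 1. The strongest E(z) region of replicate 1 was a different one, at 17.4, above 72.3% of the regions of that list on the arms. The share of all protein-coding genes was not computed for the stronger 50% of the list or the other assignment rules. Nor was it computed for the ranked list behind the conservative list or those of each replicate. The counts under these settings therefore stand without a comparison. No paired analysis was possible because there is 1 group. With 2 replicates and unknown depth, a gene without a region is only not listed, and its absence cannot be shown.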
